A study of Mus musculus with 2 samples.

Results

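The genes described here encode the mitochondrial ribosomal proteins, the nuclear-encoded protein subunits of the ribosome that works inside mitochondria. They were taken as all gene symbols of the series that begin with Mrpl or Mrps followed by a number, leaving out pseudogene symbols, with 50 or more reads in either library. The rule found 77 genes of 23238 symbols in all, and all 77 passed the read floor, as did 10469 genes of the whole series. Among the 77, Mrps36 is now known not to be a subunit of this ribosome, and it is counted in the values given for the 77. The data are 2 RNA libraries, the first made from mouse dendritic cells given 100 nM UNE-C1 for 24 h and the other from control cells, told apart by their titles. The treatment text of the labels is the same for both, and what the control cells received is not stated. These cells, which present antigen to T cells, had been raised from bone marrow in culture with GM-CSF. UNE-C1 is known as a piece of cysteinyl-tRNA synthetase that binds TLR2 together with TLR6. Both groups came from female C57BL/6 mice aged 7 weeks, without any genetic change in the labels, and both were raised in 20 ng/ml GM-CSF, which was added again on day 3, before non-adherent and loosely attached cells were collected on day 6. The number of animals behind the marrow, and any pooling, were not given in the sources used here.

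The mitochondrial ribosome translates the few messenger RNAs encoded in mitochondrial DNA, all of them for subunits of the respiratory chain and ATP synthase. Its ribosomal RNAs come from mitochondrial DNA, while its proteins are made in the cytosol and imported. A large subunit holds the peptidyl transferase centre and the exit tunnel, and a small subunit decodes the messenger RNA. Some proteins have a homologue in the bacterial ribosome, and others are found in mitochondria and not in bacteria. Antigen-presenting cells are known to shift between oxidative and glycolytic metabolism when Toll-like receptors are engaged.

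The UNE-C1 library held 15975821 reads and the control library 14857198. With 1 library per group there was no replicate and no test, so every difference below is one between these 2 libraries and every interval covers counting error only. Levels are in CPM (read counts scaled to library size, here with effective library sizes from TMM, which sets most genes equal on average), and fold changes are log2 of CPM + 1, UNE-C1 over control. Reads were taken near the 3' end of each messenger RNA and do not scale with its length, so that CPM can be set side by side between genes.

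As a group, the mitochondrial ribosomal protein genes stood at the same summed level in both libraries. Their CPM added up to 2687 in the UNE-C1 library and 2672 in the control library, a ratio of 1.006 with a 95% interval of 0.992 to 1.02. The median log2 fold change of the 77 genes was -0.04, against -0.00 over all 10469 genes. With UNE-C1, Mrpl14 and Mrpl45 were at least 2-fold higher and Mrps28 was at least 2-fold lower. These 3 genes are 3.90% of the members, against 18.7% of all genes past the read floor (9.31% higher and 9.42% lower). At 1.5-fold, 6 members were higher, where the background was 18.2% of all genes, and 10 were lower, where it was 19.3%. The 16 members past 1.5-fold are 20.8% of the 77, against 37.5% of all genes, and the other 61 lay within 1.5-fold. Fold changes of the members ran from -1.54 to 1.32, and the distance between their quartiles was 0.59, against 0.85 over all genes. Of the members 44 were below 0 and 33 above it, with 50.4% of all genes below 0 and 49.6% above.

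The equality of the summed levels belongs to the TMM scale. As a raw share of each library the 77 genes took 0.239% of the UNE-C1 reads (38107 reads, exact binomial 95% interval 0.236% to 0.241%) and 0.301% of the control reads (44707 reads, 0.298% to 0.304%). With total counts in place of effective library sizes the summed ratio was 0.793 and the median of the members -0.37, while the median of all genes also moved, to -0.33. On that scale 0 members were at least 2-fold higher (6.28% of all genes) and 7 were at least 2-fold lower (16.2%). At 1.5-fold 2 members were higher (10.4%) and 25 lower (33.5%), and 15 members were above 0 (29.7%). Members at least 2-fold lower numbered 3 with upper-quartile factors (10.8%) and 3 with a pseudocount of 0.1 (11.0%). The median of the members relative to that of all genes was -0.04 on the TMM scale and -0.05 with total counts.

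The members covered a wide range of levels. In the UNE-C1 library the lowest, median and highest member stood at 2.68, 26.2 and 108 CPM, and in the control library at 3.17, 25.2 and 111 CPM. All genes past the floor had a median of 24.5 CPM in the UNE-C1 library and 24.0 CPM in the control library, so a typical member was about as abundant as a typical gene compared. The most abundant members by mean level were Mrps21, Mrpl34, Mrpl52, Mrpl18 and Mrpl45. Mrps21, a small subunit protein, had 102 CPM in the UNE-C1 library and 104 CPM in the control library. Mrpl34, a short large subunit protein with a bacterial homologue, had 85.2 CPM with UNE-C1 and 111 CPM in the control. Mrpl52, in the central protuberance, had 76.6 CPM with UNE-C1 and 103 CPM in the control. Mrpl18, also in the central protuberance, had 78.5 CPM with UNE-C1 and 81.3 CPM in the control. Mrpl21 was the least abundant member, with 38 reads in the UNE-C1 library and 53 in the control library. Of the 10 most abundant members of each library 7 were in both sets, and Spearman's rho between the libraries was 0.888 across the 77 genes, which are not independent replicates.

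**Figure D1:**
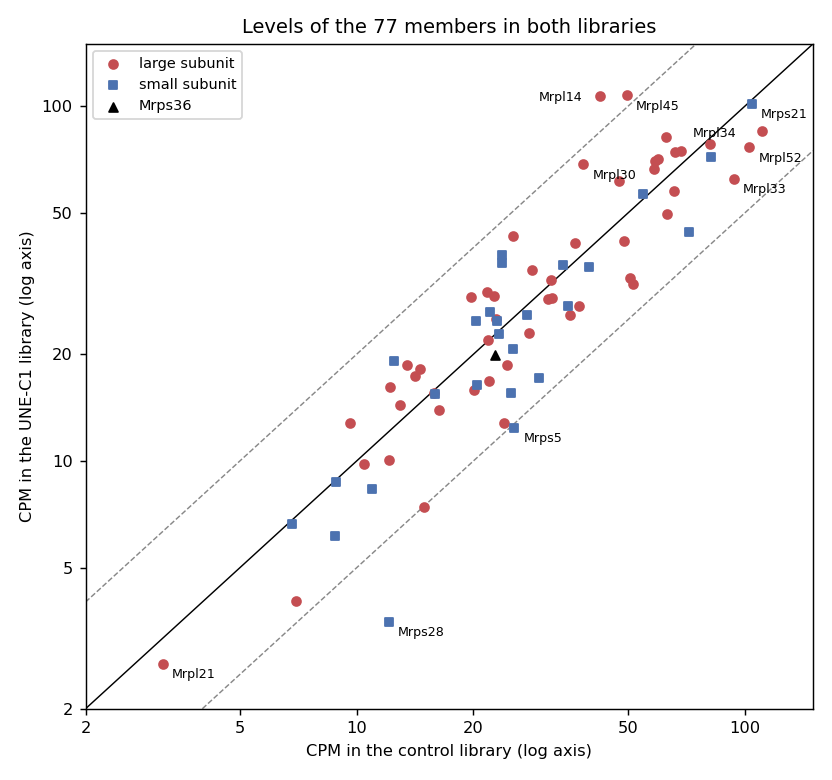
Level of each of the 77 members in the UNE-C1 library (vertical axis, CPM, log) against the control library (horizontal axis, CPM, log). Circles are large subunit members, squares small subunit members and the triangle is Mrps36. The solid line marks equal levels and the dashed lines a plain ratio of 2 either way. Most members lie close to the solid line, Mrpl14 and Mrpl45 lie above the upper dashed line, and Mrps28 (3.53 CPM with UNE-C1, 12.1 CPM in the control) lies farthest below the lower one, just past which are Mrps5 and Mrpl50.

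Mrpl14 and Mrpl45, the members with the largest positive fold changes, were also the most abundant members of the UNE-C1 library. Mrpl14 lies on the intersubunit face of the large subunit, where the assembly factor Malsu1 binds it and keeps the subunits apart during assembly. Its gene is on chromosome 17 at 45686322 to 45698495 (GRCm38, plus strand). It had 1521 reads (107 CPM) in the UNE-C1 library and 710 reads (42.4 CPM) in the control library, a log2 fold change of 1.32 and a ratio of 2.53 (2.31 to 2.77). It was higher than 93.7% of all genes in fold change, and it ranked 2 by CPM among the members in the UNE-C1 library and 22 in the control library. Mrpl45 sits at the exit of the peptide tunnel and anchors the ribosome to the inner membrane. Its gene is on chromosome 11 at 97315716 to 97329920 (GRCm38, plus strand). It had 1526 reads (108 CPM) with UNE-C1 and 832 reads (49.7 CPM) in the control, a log2 fold change of 1.10 and a ratio of 2.16 (1.99 to 2.36). It ranked 1 among the members with UNE-C1 and 19 in the control. With total counts the log2 fold changes were 0.98 for Mrpl14 and 0.76 for Mrpl45, both short of 2-fold.

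The promoters of these genes and of a few others are shown, some of them as examples of members that hold known motifs. Promoters of mitochondrial ribosomal protein genes are known for binding sites of NRF1, of ETS factors such as GABPA, and of YY1. Mrpl33, Mrps18a and Mrpl39, shown as holders of such motifs, lay within 1.5-fold, while some holders that are not shown lay past it. RefSeq windows (build GRCm38.p6) were held for 68 of the 77 members, as 74 windows of 300 bases around an annotated start. Entries were missing for Mrpl4, Mrpl13, Mrpl15, Mrpl19, Mrpl38, Mrpl54, Mrps28, Mrps34 and Mrps35. Each line gives 200 bases before the start and 30 bases from it on, 5' to 3' on the strand of the gene, with capitals marking any of the motifs named in the next paragraph.
Mrpl14, chr17:45686149-45686378, plus strand: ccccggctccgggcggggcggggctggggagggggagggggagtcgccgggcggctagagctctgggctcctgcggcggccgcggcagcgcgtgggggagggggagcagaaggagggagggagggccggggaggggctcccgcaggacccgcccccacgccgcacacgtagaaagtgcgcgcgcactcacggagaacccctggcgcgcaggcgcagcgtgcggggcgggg
Mrpl45, chr11:97315516-97315745, plus strand: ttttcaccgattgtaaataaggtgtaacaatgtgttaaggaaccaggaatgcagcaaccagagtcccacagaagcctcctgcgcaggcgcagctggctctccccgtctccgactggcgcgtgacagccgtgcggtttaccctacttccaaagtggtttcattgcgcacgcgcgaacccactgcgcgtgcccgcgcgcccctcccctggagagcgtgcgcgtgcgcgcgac
Mrps5, chr2:127587226-127587455, plus strand: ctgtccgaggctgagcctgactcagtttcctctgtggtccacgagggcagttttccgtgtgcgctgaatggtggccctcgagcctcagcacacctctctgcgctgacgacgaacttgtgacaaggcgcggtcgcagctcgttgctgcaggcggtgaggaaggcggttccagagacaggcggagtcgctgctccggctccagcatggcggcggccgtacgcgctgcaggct
Mrpl50, chr4:49521054-49521283, minus strand: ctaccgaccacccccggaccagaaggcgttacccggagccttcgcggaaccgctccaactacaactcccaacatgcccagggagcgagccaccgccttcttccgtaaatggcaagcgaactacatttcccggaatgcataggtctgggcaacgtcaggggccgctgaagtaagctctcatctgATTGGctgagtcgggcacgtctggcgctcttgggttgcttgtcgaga
Mrpl33, chr5:31613751-31613980, plus strand: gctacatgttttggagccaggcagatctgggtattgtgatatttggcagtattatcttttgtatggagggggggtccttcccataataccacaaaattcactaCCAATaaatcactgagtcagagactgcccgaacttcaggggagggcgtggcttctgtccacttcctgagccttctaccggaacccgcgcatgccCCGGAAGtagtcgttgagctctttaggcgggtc
Mrps18a, chr17:46110804-46111033, plus strand: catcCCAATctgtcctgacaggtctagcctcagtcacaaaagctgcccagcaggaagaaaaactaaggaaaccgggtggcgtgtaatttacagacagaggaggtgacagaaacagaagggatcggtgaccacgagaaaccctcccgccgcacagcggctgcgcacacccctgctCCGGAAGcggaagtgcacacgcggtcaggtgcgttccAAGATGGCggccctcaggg
Mrpl39, chr16:84735215-84735444, minus strand: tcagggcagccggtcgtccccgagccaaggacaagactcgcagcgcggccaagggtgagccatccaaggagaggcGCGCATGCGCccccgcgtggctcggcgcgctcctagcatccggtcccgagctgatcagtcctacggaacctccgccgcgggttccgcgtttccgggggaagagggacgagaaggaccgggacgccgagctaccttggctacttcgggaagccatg

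Motifs were sought as exact letters on either strand, and none of them contains another. The palindromic NRF1 motif, spelled in capitals in the Mrpl39 window, was in 3 of the 74 member windows (4.05%), against 0.971% of all 32851 windows and 2.13% of the 10294 windows of genes past the read floor. The ETS motif CCGGAAG was in 25 member windows (33.8%), against 8.86% of all windows and 18.4% of those of genes past the floor. The YY1 motif AAGATGGC was in 12 (16.2%), against 2.75% and 4.79% for the same backgrounds. At least 1 of these 3 motifs was in 48.6% of the member windows, against 11.9% and 23.7%. The E box CACGTG, as bound by MYC, was in 9.46% of the member windows, against 7.15% and 10.2%, and CCAAT, as bound by NF-Y, in 40.5%, against 37.4% and 37.2%. In the printed windows Mrps18a holds an ETS, a YY1 and a CCAAT motif, and Mrpl33 an ETS and a CCAAT motif. Mrpl39 holds the NRF1 motif and Mrpl50 a reverse CCAAT. Mrpl14, Mrpl45 and Mrps5 hold none of these exact letters. Other spellings were neither sought nor counted, and the Mrpl45 window holds gcgcacgcgc, which differs from the NRF1 letters by 1 base. The median log2 fold change was -0.05 for the 25 genes with the ETS motif and -0.09 for the 43 without, and 0.02 for the 12 with the YY1 motif and -0.11 for the 56 without. It was 0.27 for the 3 genes with the NRF1 motif and -0.08 for the 65 without. For the E box it was -0.34 in the 5 with it and -0.03 in the 63 without. For CCAAT it was -0.18 in the 27 with it and -0.02 in the 41 without. Fold changes of the genes with the ETS motif ran from -0.75 (Mrps26) to 0.67 (Mrps18c), and with the YY1 motif from -0.69 to 0.59. For the genes without the ETS motif, and for those without the YY1 motif, they ran from -0.98 to 1.32. A match here is a run of letters in a window and not a bound site.

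The large subunit had 50 of the members. Their summed level was 1945 CPM in the UNE-C1 library and 1862 CPM in the control library, a ratio of 1.04 (1.03 to 1.06). Without Mrpl14 and Mrpl45, a choice made after their values were seen, the ratio for the other 48 was 0.977 (0.961 to 0.994). Leaving out the 2 highest fold changes could only lower the ratio, and no other members were left out for comparison. On the TMM scale the ratio was above 1 with Mrpl14 and Mrpl45 and below 1 without them. The scale matters as well, since as a raw share the 50 genes took 0.173% of the UNE-C1 reads and 0.210% of the control reads. The median fold change of the 50 genes was -0.00, and 25 were above 0 and 25 below. Among the 30 with a bacterial homologue the median was -0.07, with 3 past 1.5-fold upward and 3 downward. Among the 20 specific to mitochondria it was 0.15, with 1 higher and 2 lower. Of the 50 genes 18% were past 1.5-fold, against 37.5% of all genes.

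Besides Mrpl14, the large subunit members with a bacterial homologue that were at least 1.5-fold higher were Mrpl30 and Mrpl13. Mrpl30 had 974 reads (68.7 CPM) with UNE-C1 and 643 reads (38.4 CPM) in the control, a log2 fold change of 0.82 and a ratio of 1.79 (1.62 to 1.98). Mrpl13 had 610 reads (43.0 CPM) with UNE-C1 and 423 reads (25.3 CPM) in the control, a log2 fold change of 0.74 and a ratio of 1.70. Next in order and within 1.5-fold were Mrpl35, at 0.45, and Mrpl46, a central protuberance protein, at 0.44.

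The large subunit members at least 1.5-fold lower were Mrpl50, Mrpl23, Mrpl42, Mrpl15 and Mrpl12. Mrpl50, a protein specific to mitochondria, had 105 reads (7.40 CPM) with UNE-C1 and 250 reads (14.9 CPM) in the control, a log2 fold change of -0.92 and a 2.02-fold lower level (1.60 to 2.56). Mrpl23, a homologue of the bacterial protein at the rim of the tunnel exit, had 181 reads (12.8 CPM) with UNE-C1 and 401 reads (24.0 CPM) in the control, a log2 fold change of -0.86. Mrpl42, another protein specific to mitochondria, had 31.6 CPM with UNE-C1 and 51.7 CPM in the control, a log2 fold change of -0.69. Mrpl15, a homologue of a core protein of the bacterial large subunit, was low in both libraries, with 57 reads in the UNE-C1 library and 117 in the control library (-0.67 and 1.74-fold lower, 1.26 to 2.43). Mrpl33, a small protein of the large subunit, lay just inside the 1.5-fold threshold at -0.58, with 62.6 CPM with UNE-C1 and 93.9 CPM in the control.

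By site, neighbours in the structure did not share 1 direction. The stalk is the mobile arm of the large subunit to which translation factors bind, and its 5 members had a median of 0.03 and summed levels of 242 CPM with UNE-C1 and 235 CPM in the control. Within it Mrpl12, the stalk protein that contacts the factors and is also known to bind the mitochondrial RNA polymerase, had 464 reads (32.7 CPM) with UNE-C1 and 847 reads (50.6 CPM) in the control, a log2 fold change of -0.61 and a 1.55-fold lower level (1.38 to 1.74). Its partner Mrpl10, the base of the stalk, was at 0.03, and Mrpl53 was at 0.38. The 5 members around the tunnel exit (Mrpl22, Mrpl23, Mrpl24, Mrpl45 and Mrpl47) ran from -0.86 for Mrpl23 to 1.10 for Mrpl45. Their summed level was 222 CPM with UNE-C1 and 162 CPM in the control. Nearly all of that difference lay in Mrpl45, with 108 CPM with UNE-C1 and 49.7 CPM in the control. The other 3 members of this site were at 0.14, 0.17 and 0.37. The 7 members of the central protuberance all lay within 1.5-fold, between -0.42 and 0.44, with a median of -0.02.

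The small subunit had 26 of the members. Its summed level was 722 CPM in the UNE-C1 library and 787 CPM in the control library, a ratio of 0.917 (0.894 to 0.942). As a raw share the 26 genes took 0.0641% of the UNE-C1 reads and 0.0886% of the control reads. The median fold change was -0.06, with 8 genes above 0 and 18 below. Past 1.5-fold were 2 genes upward and 5 downward, together 26.9% of the 26. Of all genes 37.5% were past 1.5-fold, 18.2% upward and 19.3% downward. The 16 members with a bacterial homologue had a median of -0.22, and the 10 specific to mitochondria one of -0.04. No test between the subunits was possible.

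Mrps28, a small subunit protein, was the member with the lowest fold change. Its gene is on chromosome 3 at 8802146 to 8923918 (GRCm38, minus strand). It had 50 reads (3.53 CPM) in the UNE-C1 library and 203 reads (12.1 CPM) in the control library, a log2 fold change of -1.54 and a 3.44-fold lower level (2.52 to 4.79). Only 3.78% of all genes had a lower fold change. Mrps5, a homologue of a bacterial protein that lines the path of the messenger RNA into the ribosome, had 176 reads (12.4 CPM) with UNE-C1 and 427 reads (25.5 CPM) in the control, a log2 fold change of -0.98, just short of 2-fold on this scale, and a 2.06-fold lower level (1.72 to 2.47). Mrps26 had 17.1 CPM with UNE-C1 and 29.6 CPM in the control (-0.75), and Mrps15, which binds the small ribosomal RNA early in bacterial assembly, had 44.1 CPM with UNE-C1 and 71.7 CPM in the control (-0.69). Mrps2 had 220 reads with UNE-C1 and 418 in the control (-0.65).

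Higher in the small subunit were Mrps18c and Mrps24. Mrps18c had 542 reads (38.2 CPM) with UNE-C1 and 397 reads (23.7 CPM) in the control, a log2 fold change of 0.67 and a ratio of 1.61 (1.41 to 1.84). Mrps24, a homologue of the bacterial protein at the messenger RNA entry, had 514 reads (36.2 CPM) with UNE-C1 and 397 reads (23.7 CPM) in the control, a log2 fold change of 0.59. Mrps22, specific to mitochondria, lay just inside the threshold at 0.58. Mrps12, a homologue of the bacterial decoding-site protein whose mutations give streptomycin resistance, had 35.7 CPM with UNE-C1 and 33.9 CPM in the control, a ratio of 1.05 (0.930 to 1.19).

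**Figure D2:**
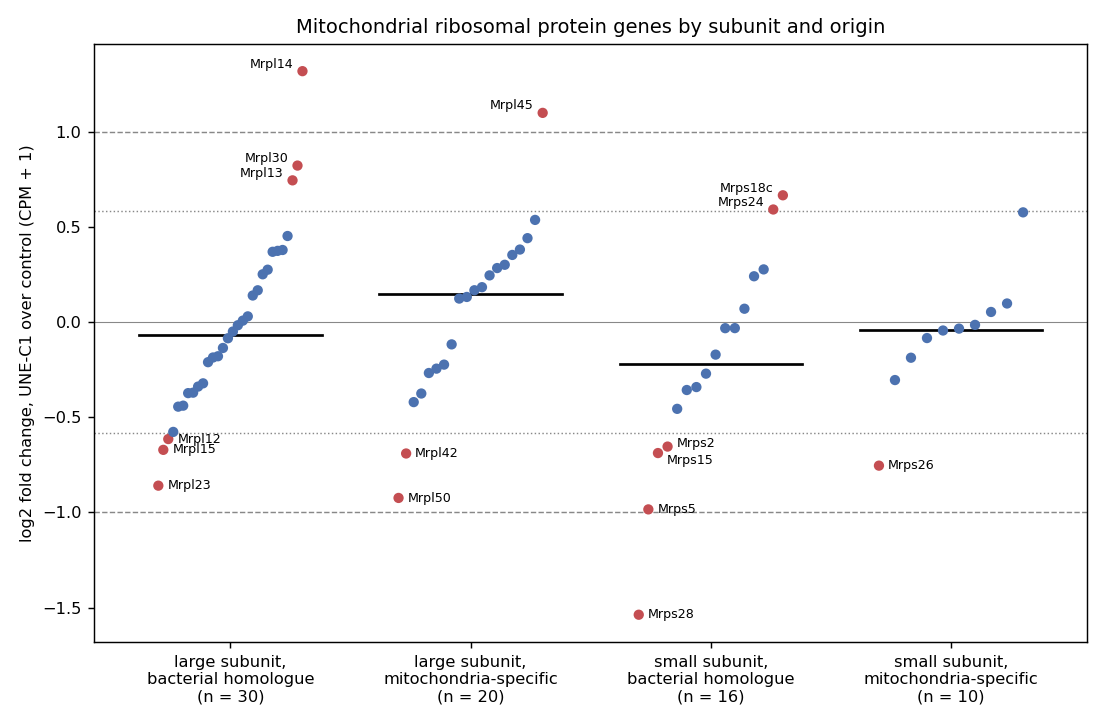
Log2 fold change (UNE-C1 over control, CPM + 1) of 76 members by subunit and by whether a bacterial homologue exists, each point 1 gene, ordered within its column. Mrps36 is not shown. Thick bars are medians (-0.07, 0.15, -0.22 and -0.04 in the columns from left to right), dashed lines mark 2-fold and dotted lines 1.5-fold. Points past 1.5-fold are red and named. Each column holds points on both sides of 0.

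The members named for the bacterial S18 protein are 3 related proteins that occupy different places. Mrps18c is the one at the position of the bacterial protein, Mrps18b is elsewhere in the small subunit, and Mrps18a is a large subunit protein in spite of its name, as is Mrps30. The log2 fold change was 0.67 for Mrps18c, 0.54 for Mrps18a (29.1 CPM with UNE-C1 and 19.7 CPM in the control) and -0.30 for Mrps18b (16.4 CPM with UNE-C1 and 20.4 CPM in the control). The interval of the ratio was 1.41 to 1.84 for Mrps18c and 1.27 to 1.71 for Mrps18a, and these overlap. Mrps30 was at 0.13. Mrps36, now known as a subunit of the 2-oxoglutarate dehydrogenase complex and not of the ribosome, was at -0.18, with 283 reads in the UNE-C1 library and 380 in the control library.

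**Figure D3:**
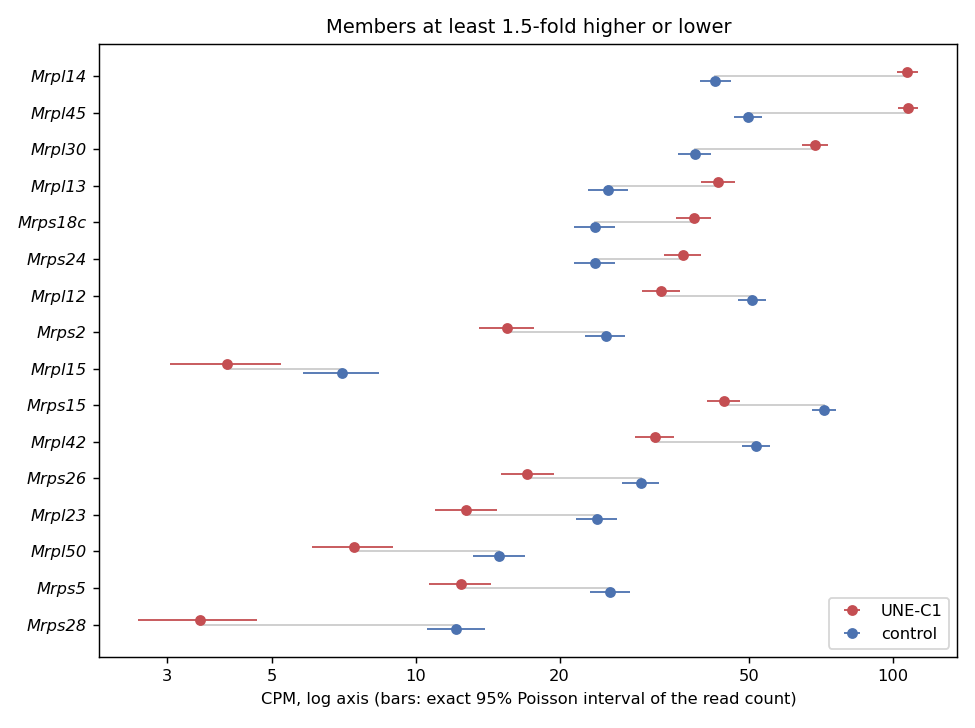
Levels (CPM, log axis) of the 16 members at least 1.5-fold higher or lower, in order of fold change, with the UNE-C1 library in red above the control library in blue. Bars are exact 95% Poisson intervals of each read count and do not cover variation between cultures. The bar is widest for Mrps28 in the UNE-C1 library (50 reads).

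Some of these counts may hold reads of other genes, since the sources used here give neither the strand setting nor how reads that match several places were handled. The last 200 bases of a transcript of 22 members had a near-identical stretch (95% or more over 100 bases or more) elsewhere in the GENCODE M21 transcripts. For 11 of them it lay on a processed pseudogene in the same direction. These include Mrpl23, whose end is 100% identical over 198 bases to Mrpl23-ps1. Among the 11 are also Mrpl30, Mrps5, Mrps18b, Mrps18c and the abundant Mrps21, so these values are uncertain. For 10 members another gene of the series covers the 3' end. Mrps18a is one of them, covered on the opposite strand by Rsph9, which itself had 55 reads with UNE-C1 and 11 in the control. Mrpl33 is another, covered on the opposite strand by Rbks, with 62 reads with UNE-C1 and 98 in the control. Mrps24 shares 2264 bases with Urgcp on the same strand, a gene with 433 reads with UNE-C1 and 193 in the control, and its value is uncertain too. Mrpl14, Mrpl45, Mrps28 and Mrpl50 had neither a near-identical end nor another gene of the series over their 3' end. Overlaps with genes outside the series were not sought. Gm16279, a gene outside the series, matches the end of Mrps18b at 100% over 200 bases on the opposite strand.

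Many mitochondrial protein genes share a promoter region with a gene that runs the other way. A gene on the opposite strand whose start lay within 1000 bases was in the files for 34 members, in 33 distinct pairs, since Mrpl46 and Mrps11 are each other's neighbour. The median distance between starts was 120 bases. Such a gene is called a divergent neighbour here even where the pair overlaps at its starts. Mrpl14 and Tmem63b overlap over 584 bases, for example, and Mrpl46 and Mrps11 over 413. In 24 pairs the neighbour also passed the read floor, and there the signs were the same in 12 pairs and opposite in 12. Tmem63b, a membrane channel gene whose start is 583 bases from that of Mrpl14, had 616 reads with UNE-C1 and 337 in the control, a log2 fold change of 1.07 beside 1.32 for Mrpl14. Mitd1, which starts 66 bases from Mrpl30 and encodes a protein of the last step of cell division, had 1460 reads with UNE-C1 and 471 in the control, a log2 fold change of 1.83 beside 0.82 for Mrpl30. Mtbp, 340 bases from Mrpl13, ran the other way, at -1.03 beside 0.74, although on 24 reads with UNE-C1 and 75 in the control. Mrpl46 and Mrps11, a large and a small subunit gene that start 412 bases apart, were at 0.44 and -0.46. Zfp661 opposite Mrps5 and Zfp189 opposite Mrpl50 were under the read floor, and Mrpl45 and Mrps28 had no such neighbour.

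**Figure D4:**
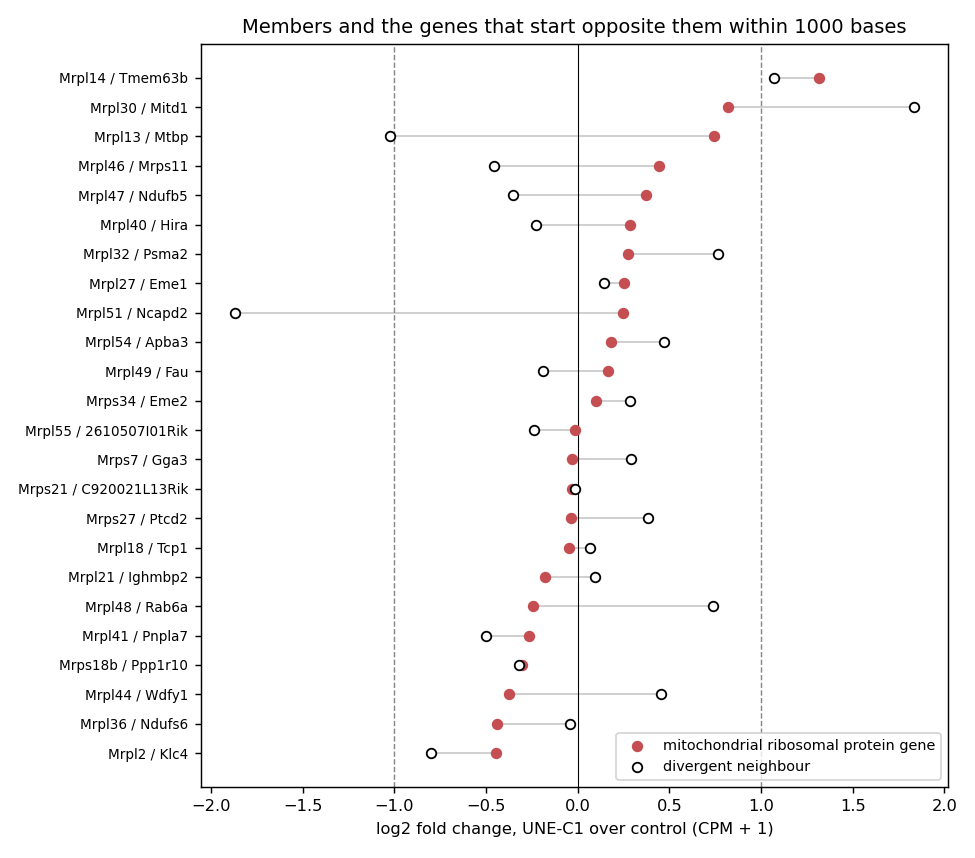
Log2 fold change (UNE-C1 over control, CPM + 1) of the member (filled) and of its divergent neighbour (open) in the 24 pairs in which both passed the read floor. Dashed lines mark 2-fold. Some pairs overlap at their starts. Mrpl14 and Tmem63b, and Mrpl30 and Mitd1, lie on the same side of 0. For Mrpl51 the neighbour Ncapd2, a condensin gene named after its value was seen, was at -1.87 beside 0.24.

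Of the subunits of the mitochondrial ribosome that carry other names, none of the 7 past the floor was at least 2-fold higher or lower. The share over all genes past the floor was 18.7%. Fold changes of these 7 subunits ran from -0.78 to 0.56, with a median of -0.17. Dap3, the GTP-binding protein of the small subunit, had 720 reads with UNE-C1 and 571 in the control (0.56). Ptcd3, a pentatricopeptide protein of the small subunit, had 110 reads with UNE-C1 and 235 in the control (-0.78) and was the one past 1.5-fold. Ict1, the peptidyl-tRNA hydrolase built into the large subunit and also called Mrpl58, was at -0.30, and Chchd1 at -0.19.

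Factors that assemble the ribosome had a median of -0.08 over the 23 past the floor, with 1 gene past 1.5-fold upward and 5 downward. Of all genes past the floor 18.2% were at least 1.5-fold higher and 19.3% lower. Mrm1, which methylates the large ribosomal RNA, had 245 reads with UNE-C1 and 156 in the control (0.82). Tfb1m, which dimethylates the small ribosomal RNA, had 20 reads with UNE-C1 and 68 in the control (-1.07), and the GTPase Noa1 had 37 with UNE-C1 and 106 in the control (-1.02). Malsu1, the binding partner of Mrpl14 and named here after its value was seen, had 437 reads with UNE-C1 and 361 in the control (0.49).

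Factors of mitochondrial translation had a median of -0.21 over 15 genes, with 1 past 1.5-fold upward and 4 downward. The shares over all genes were 18.2% upward and 19.3% downward. Slirp and Lrpprc encode the partners of a complex that keeps mitochondrial messenger RNAs stable, and their levels differed in opposite directions. Slirp had 2099 reads (148 CPM) with UNE-C1 and 1257 reads (75.1 CPM) in the control, a log2 fold change of 0.97. Lrpprc had 160 reads (11.3 CPM) with UNE-C1 and 443 reads (26.5 CPM) in the control, a log2 fold change of -1.16 and a 2.35-fold lower level (1.96 to 2.83). Guf1, a GTPase of the elongation step, had 81 reads with UNE-C1 and 213 in the control (-1.03), and the elongation factor Tsfm was at -0.70.

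Regulators known to drive mitochondrial gene expression had a median of -0.06 over 9 genes. None was at least 1.5-fold higher, against 18.2% of all genes. With a floor of 200 reads that median was 0.16 and with no floor 0.05, so its sign depends on the floor. Myc, a growth factor-responsive transcription factor, had 2 reads with UNE-C1 and 96 in the control, a 40.7-fold lower level with a counting interval of 11.0 to 341. Pprc1, a PGC-1-related coactivator, had 38 reads with UNE-C1 and 119 in the control (-1.14). Ppargc1b, the coactivator PGC-1 beta, had 349 with UNE-C1 and 713 in the control (-0.77). Yy1 was at 0.44. The genes of the factors behind the other motifs, named after their values were seen, were at 0.15 for Nrf1 and 0.17 for Gabpa. The messenger RNAs encoded in mitochondrial DNA were not analysed here, since none of the 13 symbols listed for them matched the files.

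Beside the cytosolic ribosome and the respiratory chain, the mitochondrial ribosomal proteins lay closest to the median of all genes and were more spread out. Cytosolic ribosomal protein genes, 84 of 86 past the floor, had a median of -0.67, with 79 below 0, 48 past 1.5-fold downward and 1 upward, and their summed level was 21240 CPM with UNE-C1 and 31650 CPM in the control. Subunits of the respiratory chain and ATP synthase, 78 of 85 past the floor, had a median of -0.18, with 60 below 0, 6 past 1.5-fold downward and 1 upward. Of all genes past the floor 50.4% were below 0, 19.3% past 1.5-fold downward and 18.2% upward. The distance between quartiles was 0.59 for the mitochondrial ribosomal proteins, 0.29 for the cytosolic ones and 0.35 for the respiratory chain. Over all genes it was 0.85. With UNE-C1 the members had 38107 reads, the cytosolic list 301275 and the respiratory chain list 147870. Counting error is larger for genes with fewer reads, and its part in the spread was not tested. Many cytosolic ribosomal protein genes have processed pseudogenes, and their counts are uncertain for that reason. These differences between lists were not tested.

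**Figure D5:**
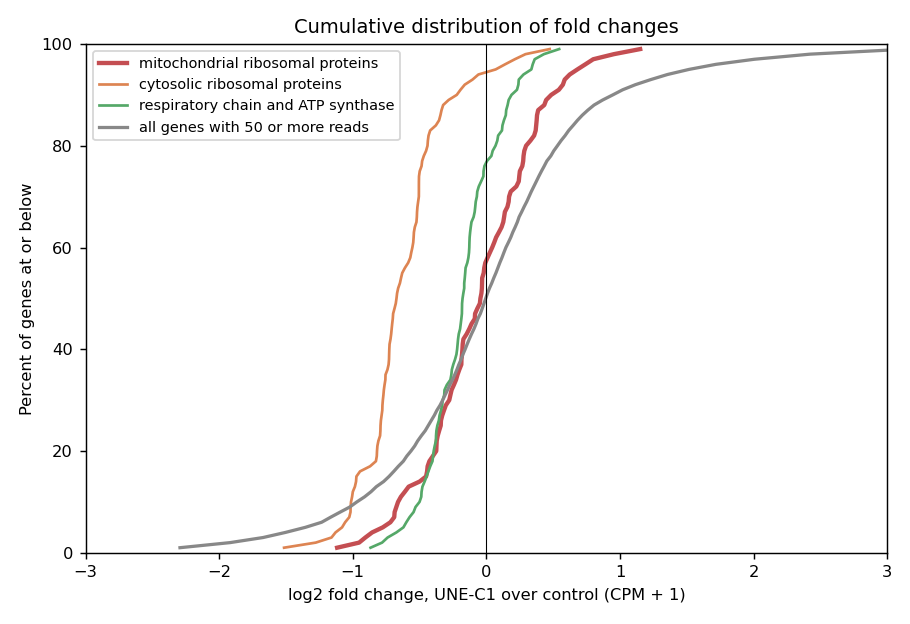
Percent of genes at or below each log2 fold change (UNE-C1 over control, CPM + 1) for mitochondrial ribosomal proteins (77 genes), cytosolic ribosomal proteins (84), respiratory chain and ATP synthase (78) and all genes past the read floor (10469). The axis is drawn from -3 to 3, and some of all genes lie outside it. The medians are -0.04, -0.67, -0.18 and -0.00 in that order.

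The cells of the libraries differed in other ways that run alongside these values. Of the dendritic cell markers 9 of 10 passed the floor and summed to 1780 CPM with UNE-C1 and 1580 CPM in the control, with Cd209a at 0 reads in both. Of these 9 genes 2 were at least 2-fold higher (Irf8 and Xcr1) and 2 at least 2-fold lower (Itgax and Clec9a), and their median log2 fold change was -0.24, below 0 while the sum was higher. Irf8 carried the sum, with 991 CPM with UNE-C1 and 396 CPM in the control, and Itgax, which encodes the CD11c integrin, had 246 CPM with UNE-C1 and 759 CPM in the control. Monocyte and macrophage markers (8 of 8) summed to 4510 CPM with UNE-C1 and 4026 CPM in the control, although 3 of them were at least 2-fold higher (Fcgr1, Ly6c2 and Adgre1) and 2 at least 2-fold lower (Mrc1 and Ccr2). Neutrophil markers (11 of 12 listed) were all at least 2-fold lower with UNE-C1 and summed to 3211 CPM, against 8321 CPM in the control. Mast cell, basophil and eosinophil markers (6 of 7) summed to 798 CPM with UNE-C1 and 1215 CPM in the control. B cell markers (0 of 4 past the floor) summed to 0.352 CPM with UNE-C1 and 2.03 CPM in the control, and T and NK cell markers (0 of 5, with Cd3e at 0 in both) to 0.493 CPM with UNE-C1 and 1.31 CPM in the control. Of 16 genes of dividing cells 13 were at least 2-fold lower, and the sum of the 16 was 176 CPM with UNE-C1 and 665 CPM in the control. Over all genes past the floor 9.31% were at least 2-fold higher and 9.42% lower. In such bulk samples fewer cells of a type and less RNA per cell cannot be told apart, and the part these markers have in the values of the mitochondrial ribosomal protein genes was not tested.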

How the data were processed

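RNA was measured with a QuantSeq 3' end kit from 500 ng of total RNA, per the labels' protocols. The authors deposited 1 file per library, each with raw whole-number read counts by gene symbol. Bowtie2, edgeR and mm10 are named in the submitters' processing notes, without roles or versions. The sources used here give no counting tool, annotation or strand setting. The 79 entries with a repeated symbol were summed, which left 23238 symbols of 23282 entries.

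CPM and fold changes were computed from the counts with TMM (edgeR 4.0.16, R 4.3.3) and a pseudocount of 1, over genes with 50 or more reads in either library (3.53 CPM with UNE-C1 and 2.99 CPM in the control). Ratios of CPM carry exact Clopper-Pearson 95% intervals from the 2 counts (scipy 1.17.1). These treat reads as independent molecules, although the sources used here name no molecular identifiers. The calculation was tested on simulated data with counting error only, which cannot speak to variation between cultures. Positions and overlaps come from GENCODE M21 (GRCm38), near-identical ends from blastn 2.17.0, and promoters from RefSeq. Marks of 2-fold and 1.5-fold are sizes on the log2(CPM + 1) scale and not tests. Total counts, DESeq2 1.42.0 size factors, upper-quartile factors, pseudocounts of 0.1 and 5, no floor and a floor of 200 reads were the alternatives.

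The members and lists were chosen with earlier results of these data known. The genes named are the 10 highest and 10 lowest members, all members past 1.5-fold, the 5 most abundant, some members named for their roles (Mrpl12, Mrpl45, Ict1, Mrps12, the Mrps18 genes, Mrps30 and Mrps36), up to 4 genes of each other list, and the divergent neighbours of named members that were past 2-fold or stood beside the 3 highest or 3 lowest members. Mrpl10, Mrpl22, Mrpl24, Mrpl47, Mrpl53, Mrpl21, Mrpl33, Mrpl39, Mrpl51, Mrps11, Rsph9, Rbks, Urgcp and the further neighbours were named after their values were seen. The result of 1 marker list is not reported here.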

Additional observations from a re-analysis of the deposited data

How the results depend on the processing

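With total counts in place of TMM, no member was at least 2-fold higher and 7 were lower, 2 were at least 1.5-fold higher and 25 lower, 15 were above 0, the members' median was -0.37 and their summed ratio 0.793. The background moved as well with total counts, to 6.28% of all genes 2-fold higher and 16.2% lower, and to a median of -0.33. At 1.5-fold it was 10.4% of all genes higher and 33.5% lower, and 29.7% of all genes were above 0. Upper-quartile factors gave 3 members at least 2-fold lower (10.8% of all genes), and a summed ratio of 0.946. A pseudocount of 0.1 also gave 3 members at least 2-fold lower (11.0% of all genes). On the TMM scale the summed large subunit ratio was 0.977 without Mrpl14 and Mrpl45, whose removal could only lower it. None of the 16 members past 1.5-fold changed sign under these alternatives, while single genes of the other lists and the neighbours were not recomputed. With total counts 25 of the 28 named members moved beyond their counting interval, and with a pseudocount of 5, 1 did. No paired analysis was possible because each group has 1 library, and for the same reason no library could be left out. Depth limits the rarest members most, such as Mrpl21 with 38 reads with UNE-C1 and 53 in the control.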

Other observations

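Genes of mitochondrial transcription and DNA maintenance had a median log2 fold change of -0.40 over 9 genes past the floor. At least 1.5-fold lower were 2 of them and none was higher, against 19.3% and 18.2% of all genes. Tfb2m, which starts transcription with the polymerase, had 74 reads with UNE-C1 and 176 in the control (-0.89), and the mitochondrial RNA polymerase Polrmt had 61 with UNE-C1 and 131 in the control (-0.74). Tefm, an elongation factor, was at -0.49 and the single-strand binding protein Ssbp1 at -0.42. Tfam, which packs mitochondrial DNA and was named after its value was seen, had 207 reads with UNE-C1 and 247 in the control (-0.02). With a floor of 200 reads, which few of these genes reach, the median was also -0.02.

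Mitochondrial aminoacyl-tRNA synthetases, which charge the transfer RNAs that this ribosome uses, had a median of -0.18 over the 13 past the floor. Past 1.5-fold were 1 gene upward and 4 downward, against 18.2% and 19.3% of all genes. Pars2, for proline, had 52 reads with UNE-C1 and 22 in the control (1.01). Wars2, for tryptophan, had 22 reads with UNE-C1 and 75 in the control (-1.10), Rars2, for arginine, had 47 with UNE-C1 and 131 in the control (-1.03), and Tars2, for threonine, had 79 with UNE-C1 and 187 in the control (-0.89).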
